A study of Mus musculus with 6 samples.

Results

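Endothelial and mural cell genes were measured in bulk prefrontal cortex RNA of Nrf2 knockout and wild type mice. The members were 36 genes chosen by name, 23 for endothelial cells and 13 for mural cells, out of 21292 genes with a probe on the array. They had 86 probes, of which 83 were tested, and each of the 36 genes had at least 1 tested probe. A probe was tested where the scanner software called it well above background on all 3 arrays of a genotype, and each gene is given at its brightest tested probe unless stated. At that probe 35 of the 36 genes were well above background on all 6 arrays. The exception was Des, the gene for the filament protein desmin, which was so on 3 wild type arrays and on 1 of the 3 knockout arrays.

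Endothelial cells line the blood vessels. In the brain they are sealed to each other by tight and adherens junctions, carry nutrient transporters and restrict transport through the cell, which together make the blood-brain barrier. Mural cells sit outside them: pericytes on capillaries, held there by signalling through the PDGF receptor beta, and smooth muscle cells with a contractile apparatus on arteries and veins. Nrf2, the product of the gene Nfe2l2, is a transcription factor that raises antioxidant and detoxification genes in many cell types, vessel cells among them.

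The samples were 3 wild type and 3 Nrf2 knockout prefrontal cortices of male ICR mice, an outbred stock, all aged 3 to 4 months, with no other allele or treatment named. Neither the deleted part of Nfe2l2 nor any cell type limit of the knockout is given in the labels. They also do not say whether each sample is a separate animal, so a p-value here sets differences against a spread between samples that may be technical. Levels are log2 processed signals minus the 75th percentile of their array, so a difference of 1 is a doubling, and levels of different probes are not compared. Differences are knockout minus wild type from limma, with its standard error (SE) and a p-value adjusted by Benjamini-Hochberg over 105930 tested probes. In bulk tissue, fewer cells of a type and less RNA per cell cannot be told apart.

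The 3 wild type arrays and knockout 1 were on slide 1, and knockouts 2 and 3 on slide 2. Slide 2 stood apart, with median local backgrounds of 18 and 19 against 23 to 24, and knockouts 2 and 3 lay beyond all 4 arrays of slide 1 in many genes (below them in 17% and above them in 22.6%). For the members named here as split by slide, and for those without overlap, the value with slide as a block is printed too. Slide 2 held no wild type. Every value with slide as a block, medians included, therefore sets knockout 1 alone against the 3 wild types. Without knockout 1, slide and genotype cannot be told apart, and limma then called 9.04% of genes. As a check of the labels, the brightest coding probe of Nfe2l2 that stayed well above background everywhere measured 0.49, 0.39 and 0.35 in wild type against −3.74, −3.79 and −3.46 in the knockout (−4.08, SE 0.12, limma adjusted p = 6.14e-04). The defining neuronal genes of cortex, Snap25, Syt1 and Rbfox3 among them, were well above background on all 6 arrays.

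No endothelial or mural gene passed the threshold of 0.05. The counts were 0 of 23 endothelial and 0 of 13 mural genes in limma, where 3 of 18056 genes at 1 probe each passed (0.0166%) and 10 of all 105930 probes (0.00944%), and the smallest adjusted p among the members was 0.307. At an unadjusted p under 0.05 limma placed 2 members higher in the knockout, the thyroid hormone transporter gene Slco1c1 and the smooth muscle actin gene Acta2, and 4 lower, Kdr, Ly6c1, Sox17 and Tagln. That is 6 of 36, where 12.5% of all genes had such a p (3.02% higher and 9.46% lower). These 6 were also the members whose genotypes did not overlap, against 19.4% of all genes (6.57% higher and 12.8% lower), so the members' count is near the background. The median difference was 0.002 over the endothelial genes (12 above 0, 11 below) and −0.004 over the mural genes (6 above, 7 below), beside −0.005 over all genes.

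The intervals describe the difference between these arrays, in which slide and genotype are partly mixed. The 95% interval of the difference lay within ±1, a doubling or halving, for 33 of the 36 genes and within ±0.5 for 20. The other three were Ly6a, Vwf and Cnn1. These intervals come from the fit without slide. With slide as a block, knockout 1 alone is set against the 3 wild types. Those intervals lay within ±1 for 34 genes, all but Vwf (−2.14 to 0.31) and Myh11 (−1.14 to 0.03), and within ±0.5 for 16. In data simulated at the spread of these 6 arrays, a difference of 1 was called for 49% of 100 changed probes and a difference of 2 for 94% of 100, so smaller changes would mostly go uncalled.

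**Figure D1:**
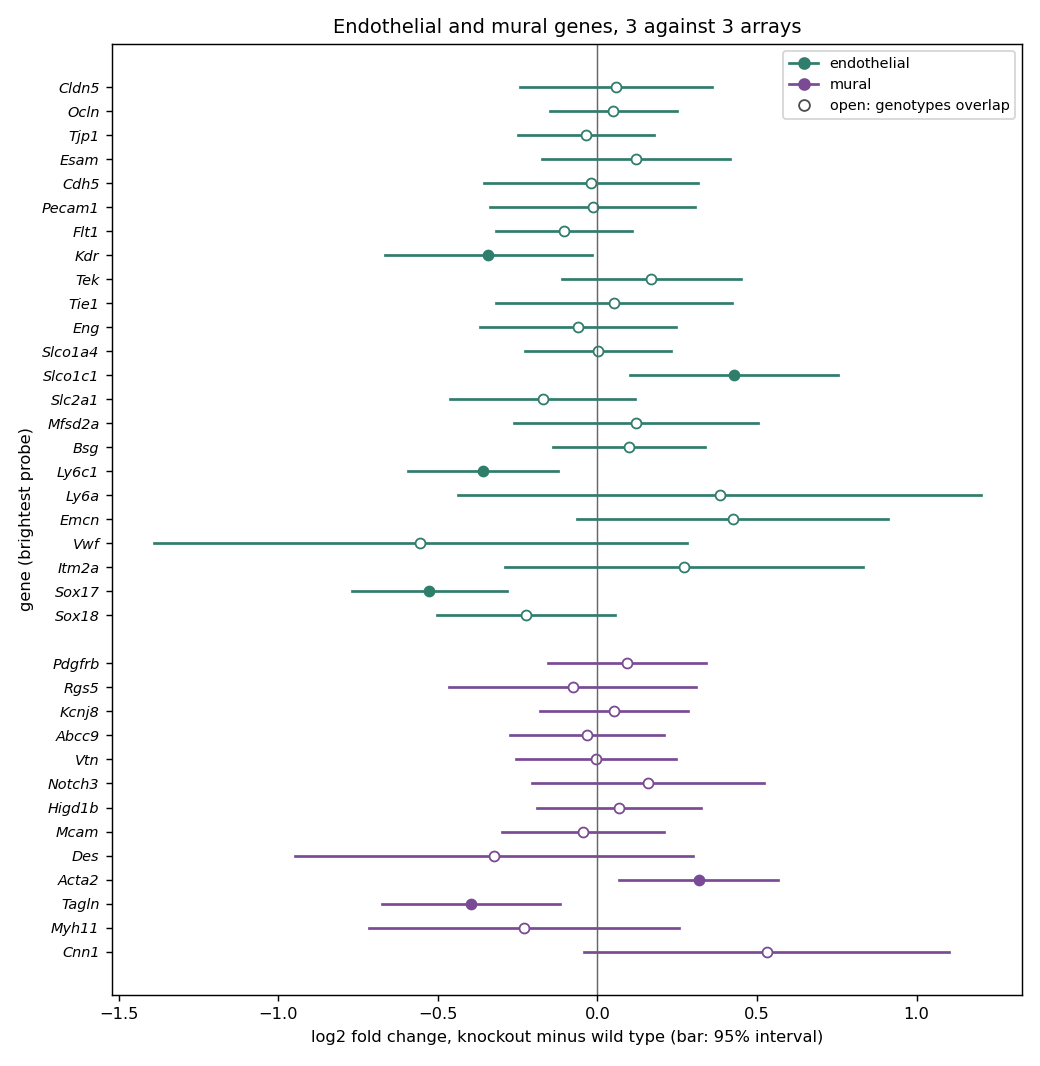
Log2 fold change of each endothelial and mural gene at its brightest probe, knockout minus wild type, with its 95% interval from limma (3 against 3 arrays). Filled points mark the 6 genes whose genotypes did not overlap, and 33 of the 36 points lie within ±0.5, where 8.61% of all genes lie outside.

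The junction genes, which seal the barrier, measured nearest to 0 of the endothelial groups. Claudin 5 (Cldn5), the main tight junction claudin of brain endothelium, measured 2.48, 2.80 and 2.66 in wild type against 2.64, 2.60 and 2.87 in the knockout. The arrays of the genotypes overlapped, and the difference was 0.06 (SE 0.13, 95% interval −0.24 to 0.36). At their brightest probes all 6 junction genes lay between −0.04 and 0.12: occludin (Ocln) at 0.05, the scaffold ZO-1 (Tjp1, also made by other cells) at −0.04, the adhesion molecule Esam at 0.12, VE-cadherin (Cdh5) at −0.02 and Pecam1 at −0.02. For Cdh5 knockout 1 measured 0.89 against 1.26 and 1.27 in the other knockouts, and the slide block gave −0.27 (SE 0.14). With the slide block Esam measured −0.03 (SE 0.15). Dimmer junction probes gave 0.07 and −0.17 for Ocln and −0.21 (SE 0.12) and 0.01 for Cdh5. The Ocln probe at −0.17 was well above background on 2 of the 3 knockout arrays and gave 0.04 after normexp background correction. Dimmer probes of the remaining junction genes lay between −0.06 and 0.04.

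Among the receptors for vessel growth factors, Kdr measured lower. Kdr encodes VEGF receptor 2, the main signalling receptor for VEGF-A on endothelium. Its brightest probe, annotated to chromosome 5, 76329309 to 76329368 on build mm9, measured 1.55, 1.64 and 1.41 in wild type against 0.96, 1.21 and 1.40 in the knockout. The genotypes did not overlap, but knockout 3 nearly reached wild type 3. The difference was −0.34 (SE 0.14, limma adjusted p = 0.326), −0.57 with slide as a block (SE 0.14, adjusted p = 0.715) and −0.23 without knockout 1. A second spot set with the same 60 bases measured 1.53, 1.60 and 1.32 against 1.03, 1.26 and 1.42, and there knockout 3 lay above wild type 3 (−0.25, SE 0.14). The adjusted p of Kdr ranged from 0.223 to 0.854 over the alternatives.

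The other receptors overlapped between genotypes. Flt1, the VEGF receptor that acts largely as a trap, measured 4.26, 4.27 and 4.12 against 4.10, 4.07 and 4.16 (−0.11, SE 0.09). The angiopoietin receptor gene Tek, its partner Tie1 and the TGF-beta co-receptor gene Eng measured 0.17, 0.05 and −0.06, with SEs of 0.12, 0.15 and 0.13. Of 5 receptor genes 3 were below 0, and the slide block gave a median of −0.16 over them.

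Of the barrier transporters 4 of 5 lay above 0, with 0 past the threshold. Slco1c1, which carries thyroxine across the barrier and is also made by astrocytes, measured 2.89, 2.57 and 2.50 in wild type against 2.97, 3.04 and 3.22 in the knockout. Wild type 1 lay just under knockout 1, and the other wild types lay well below. The difference was 0.43 (SE 0.14, 1.34-fold higher, limma adjusted p = 0.307). It was 0.32 (SE 0.19) with slide as a block, and a dimmer Slco1c1 probe gave 0.08 (SE 0.14). The glucose transporter gene Slc2a1 (GLUT1) measured 5.30, 5.19 and 5.27 in wild type against 4.86, 5.18 and 5.21 in the knockout. Here 1 array set the difference: knockout 1 was low, and the value of −0.17 (SE 0.12) became −0.06 without it and −0.40 (SE 0.10) with slide as a block. A dimmer Slc2a1 probe gave −0.21, and there too knockout 1 was low, at 4.55 against 5.01 and 5.03 in knockouts 2 and 3. The organic anion transporter gene Slco1a4, the lipid transporter gene Mfsd2a, whose product limits transcytosis, and basigin (Bsg), a chaperone of lactate transporters, measured 0.002, 0.12 and 0.10. With slide as a block they measured −0.05, −0.13 and −0.01. Their dimmer probes measured 0.23 (SE 0.11), 0.28 and 0.23. At that of Slco1a4 the knockouts lay above all wild types, and the slide block gave 0.13.

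The endothelial surface genes spread most between arrays, with a median SD within a genotype of 0.34 against 0.14 over all genes. Ly6c1, a GPI-anchored surface protein of brain endothelium, measured 5.12, 5.32 and 5.24 in wild type against 4.92, 4.76 and 4.92 in the knockout. All 3 knockout arrays lay below all wild type arrays, with a difference of −0.36 (SE 0.10, 1.28-fold lower, limma adjusted p = 0.307), −0.31 with slide as a block (SE 0.13) and −0.22 (SE 0.16) at the other Ly6c1 probe. Its relative Ly6a (Sca-1) did not follow: it measured 2.71, 3.17 and 2.73 in wild type against 2.47, 3.57 and 3.73 in the knockout. Ly6a thus split by slide, as knockouts 2 and 3 were the highest and knockout 1 the lowest of the 6 arrays. As slide 2 held no wild type, slide and differences between the knockout samples cannot be told apart for Ly6a. Its difference was 0.38 (SE 0.34), −0.40 (SE 0.21) with slide as a block and 0.78 without knockout 1 (SE 0.17, limma adjusted p = 0.0418). That last fit called 9.04% of all genes. Ly6 genes resemble each other in sequence, and whether their probes also read the relatives was not tested.

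Von Willebrand factor (Vwf), a clotting protein stored by endothelium, gave the largest negative difference of the members, with the widest error. It measured 2.19, 3.43 and 2.54 in wild type against 1.81, 2.11 and 2.59 in the knockout, so the genotypes overlapped. The difference was −0.56 (SE 0.35, limma adjusted p = 0.437), and wild type 2 stood above the other arrays; without it the value was −0.20, and with slide as a block −0.92 (SE 0.49). The dimmer Vwf probes gave −0.62 (SE 0.36) and −1.09 (SE 0.43), and wild type 2 was the highest array at both. The probe at −1.09 was well above background on 1 of the 3 knockout arrays and gave −0.17 after normexp background correction. Endomucin (Emcn), a sialomucin of veins and capillaries, measured 1.27, 0.68 and 0.61 against 1.08, 1.28 and 1.49 (0.42, SE 0.20), and Itm2a 4.20, 3.54 and 3.56 against 3.69, 4.14 and 4.29 (0.27, SE 0.23). In both, wild type 1 lay among the knockout arrays. With slide as a block Emcn measured 0.22 (SE 0.28) and Itm2a −0.08 (SE 0.29), a change of sign.

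Sox17, a transcription factor gene of arterial endothelium, had the smallest unadjusted p of the 36 genes at its brightest probe. It lies at chromosome 1, 4481890 to 4481949 on mm9, per the array's annotation, within the Sox17 transcript NM_011441. It is shown, with the brightest probe of Acta2, since for both genes the probes gave different differences.
Sox17 probe A: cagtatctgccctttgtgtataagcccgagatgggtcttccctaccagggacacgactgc
Acta2 probe A: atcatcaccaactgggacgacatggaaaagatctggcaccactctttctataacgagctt
The Sox17 probe A measured 3.56, 3.73 and 3.51 in wild type against 3.12, 2.98 and 3.13 in the knockout. The gap between the genotypes was wider than the range within either, and knockout 1 on slide 1 lay with knockouts 2 and 3 on slide 2. The difference was −0.53 (SE 0.10, 1.44-fold lower, limma adjusted p = 0.307), −0.48 with slide as a block (SE 0.14, adjusted p = 0.786), and −0.57 to −0.46 when each array was left out. Without knockout 1 it passed the threshold (−0.55, limma adjusted p = 0.0318), as did 9.04% of all genes.
Other Sox17 probes did not show it to the same degree. Probe B measured 0.49, 0.63 and 0.50 in wild type against 0.32, 0.30 and 0.60 in the knockout (−0.13, SE 0.11). Probe C measured 0.25, 0.46 and 0.30 against 0.15, 0.44 and 0.41 (−0.004, SE 0.12). A further probe was too dim to be tested. Sox18, a second endothelial transcription factor gene, measured 0.91, 1.06 and 1.24 against 0.82, 0.77 and 0.95, a difference of −0.22 (SE 0.12), and its other probe gave 0.15 (SE 0.20).

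**Figure D2:**
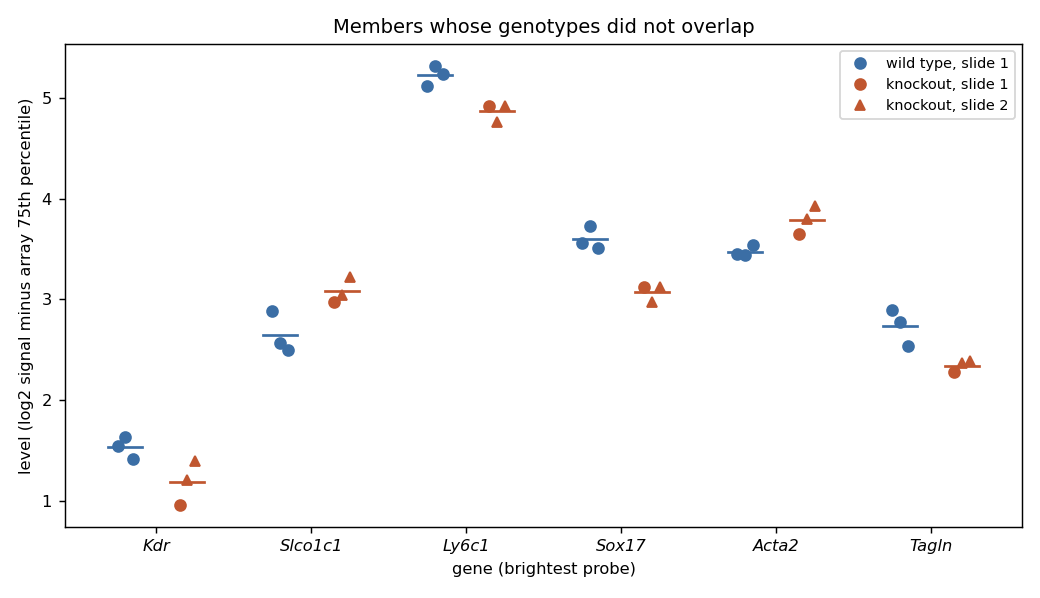
Level of the 6 members whose genotypes did not overlap, on each of the 6 arrays (log2 processed signal minus the array's 75th percentile, brightest probe), with the mean of each genotype as a line. Circles are slide 1 and triangles slide 2, and for Sox17 and Ly6c1 knockout 1 on slide 1 lies with the other knockouts.

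The 8 pericyte genes lay between −0.08 and 0.16 with a median of 0.02, and the genotypes overlapped in each of them. Pdgfrb, the receptor that keeps pericytes on capillaries, measured 2.17, 2.10 and 2.06 in wild type against 2.08, 2.36 and 2.17 in the knockout (0.09, SE 0.10). Vitronectin (Vtn), a matrix protein that pericytes secrete, measured 5.21, 4.99 and 4.91 against 5.03, 5.04 and 5.03 (−0.004, SE 0.10). The G-protein regulator gene Rgs5 measured 3.90, 3.56 and 3.43 against 3.78, 3.41 and 3.47 (−0.08, SE 0.16). Kcnj8 and Abcc9, which encode the subunits of the ATP-sensitive potassium channel of pericytes, measured 0.05 (SE 0.10) and −0.03 (SE 0.10). Notch3, the Notch receptor of mural cells, was 0.16 (SE 0.15), and knockouts 2 and 3 at 2.25 and 2.22 lay above the 4 arrays of slide 1, which spanned 1.79 to 2.05. With slide as a block the Notch3 difference turned to −0.14 (SE 0.13). Higd1b measured 0.07 and the adhesion molecule Mcam, also made by endothelium, −0.05.
At dimmer probes 2 of these genes did separate: Higd1b probe B at 0.26 (SE 0.10) and Mcam probe C at 0.42 (SE 0.09), where the knockouts measured −3.14, −3.04 and −3.26 and the wild types −3.54, −3.56 and −3.60. Neither passed the threshold, the brightest Mcam probe gave −0.05, and Mcam probe C gave 0.18 after normexp.

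The 5 contractile genes of smooth muscle diverged from each other. Transgelin (Tagln), an actin-binding protein, measured 2.90, 2.78 and 2.54 in wild type against 2.28, 2.37 and 2.39 in the knockout at its brightest probe, annotated to chromosome 9, 45738097 to 45738156 on mm9. All knockout arrays lay below all wild types, by −0.40 (SE 0.12, 1.32-fold lower, limma adjusted p = 0.307), and by −0.46 (SE 0.16) with slide as a block. Dimmer Tagln probes gave −0.06 (SE 0.23) and 0.02 (SE 0.53), and −0.35 and 1.19 with slide as a block.
Acta2, the smooth muscle alpha actin gene, went the other way at its brightest probe, shown above. That probe spans an intron, from 34322995 to 34326249 on chromosome 19 of mm9, and measured 3.45, 3.44 and 3.54 in wild type against 3.64, 3.80 and 3.93 in the knockout. The difference was 0.32 (SE 0.10, limma adjusted p = 0.310), with no overlap, 0.17 (SE 0.11) with slide as a block and 0.39 without knockout 1 (SE 0.09, adjusted p = 0.0470). Of all genes 9.04% were called in that last fit.
The 3 dimmer Acta2 probes gave −0.10 (SE 0.24), 0.06 (SE 0.09) and −0.53 (SE 0.23), the last −0.16 after normexp. The mean over the tested Acta2 probes therefore changed sign against the brightest one. Actin genes share long stretches of coding sequence, and signal from other actins at the brightest probe was not tested.

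Smooth muscle myosin (Myh11) measured 1.20, 1.16 and 0.66 against 0.46, 0.97 and 0.91 (−0.23, SE 0.20; −0.55, SE 0.23, with slide as a block), and 0.16 (SE 0.22) at its other probe. Calponin 1 (Cnn1), an actin-binding regulator of contraction, measured −1.77, −1.66 and −2.21 in wild type against −1.73, −1.38 and −0.93 in the knockout. Knockout 3 was the highest array for Cnn1 and knockout 1 lay within the wild types, so the difference of 0.53 (SE 0.24, limma adjusted p = 0.345) shrank to 0.15 (SE 0.28) with slide as a block. Desmin (Des) was dim, at −4.24, −4.55 and −4.29 in wild type against −4.08, −5.00 and −4.97 in the knockout. Its 2 lowest arrays were those of slide 2, and its difference of −0.32 (SE 0.26) was 0.28 (SE 0.15) with slide as a block, 0.03 after normexp background correction and −0.62 without knockout 1 (SE 0.12, limma adjusted p = 0.0312). Without knockout 1 limma called 9.04% of all genes. Of the 5 contractile genes 2 were above 0 and 3 below.

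Probes of the same gene gave different signs in some members, and no share over all genes is set beside this count. Of the 36 genes 34 had several tested probes, and in 13 of them the probes lay on both sides of 0: Ocln, Tjp1, Esam, Cdh5, Tek, Sox18, Rgs5, Kcnj8, Vtn, Mcam, Acta2, Tagln and Myh11. Among these 13 the probes lay farthest apart in Acta2, from −0.53 to 0.32, then in Mcam, Tagln, Myh11 and Sox18. Elsewhere the values could be small beside their SE, so that the sign says little. The Tjp1 probes ran from −0.04 to 0.04, with SEs of 0.08 to 0.09. For Ocln only the dimmest probe lay below 0.

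**Figure D3:**
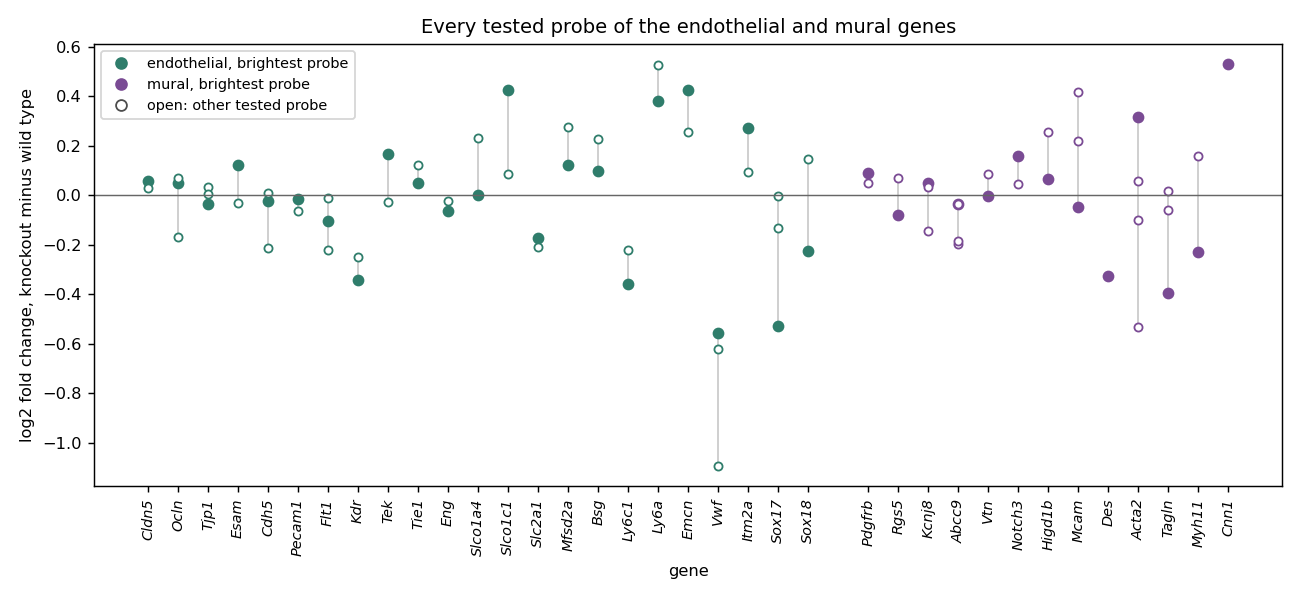
Log2 fold change, knockout minus wild type, at each of the 83 tested probes of the 36 genes. Filled points are the brightest probe of a gene and open points its other tested probes; Vwf has the lowest probe at −1.09, which was dim in the knockout, and Cnn1 the highest at 0.53, and the Acta2 probes run from −0.53 to 0.32.

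Members differed together from array to array within a genotype. The mean deviation of the 23 endothelial genes from their own means over the 6 arrays was 0.05, 0.05 and −0.08 in wild types 1 to 3 and −0.16, −0.004 and 0.15 in knockouts 1 to 3. Knockout 3 was the highest of the 3 knockouts in 22 of the 23 endothelial genes, beside 32.4% of all genes, and knockout 1 the lowest in 15 of them, beside 54.8%. For the 13 mural genes the deviations were 0.10, 0.03 and −0.14 in wild type against −0.04, 0.003 and 0.05 in the knockout. Wild type 3 was the lowest wild type in 11 of the 13 mural genes, beside 21.5% of all genes, and wild type 1 the highest in 9, beside 38.1%. These counts were chosen after the values were seen and are a description without a test. The SD of the list means within a genotype, 0.12 for endothelial and 0.09 for mural genes, exceeded the difference between the genotype means.

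**Figure D4:**
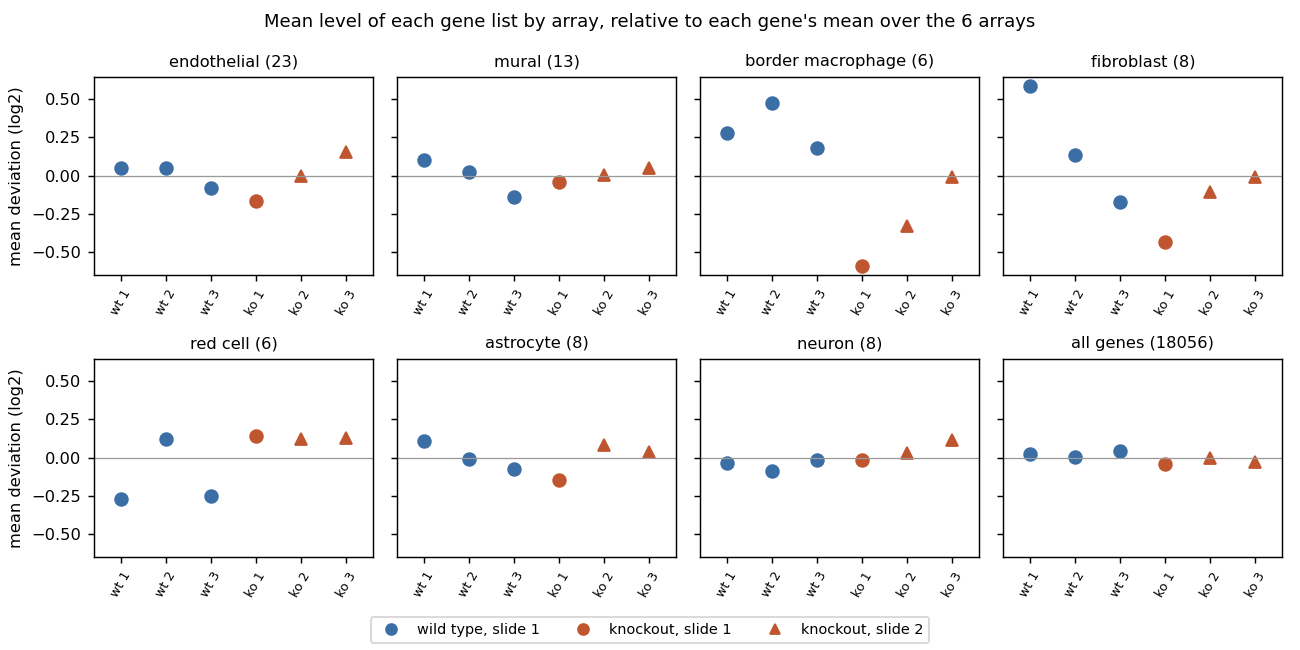
Mean deviation of each gene list from its genes' own means over the 6 arrays (log2 scale), by array, with the number of genes in brackets (wt, wild type; ko, knockout). Circles are slide 1 and triangles slide 2; endothelial genes run from −0.16 in knockout 1 to 0.15 in knockout 3, and border macrophage genes lie lower in all 3 knockouts than in any wild type.

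Knockouts 2 and 3 lay above all 4 arrays of slide 1 in 22.6% of all genes. The members were near that share, with 5 of 23 endothelial genes (Esam, Slco1c1, Bsg, Ly6a and Emcn) and 3 of 13 mural genes (Notch3, Acta2 and Cnn1). Knockouts 2 and 3 lay below all 4 in 0 endothelial genes and in 1 mural gene, Des, where 17% of all genes lay below. With slide as a block the endothelial median was −0.13 and the mural median −0.005, beside −0.06 over all genes, and 22 of the 36 members kept the sign of their difference. Under that block limma called 0 of 36 members and 0.00554% of all genes, and 4 had an unadjusted p under 0.05 where 5.37% of all genes had.

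Some marker lists of other cell types lay farther from 0 than the vessel genes did. All 6 genes of border macrophages, which lie along vessels and in the meninges, measured lower in the knockout, with a median of −0.66 and 5 of 6 without overlap, beside 12.8% of all genes lower without overlap. Mrc1, Cd163 and Lyve1 measured −0.67, −0.78 and −0.76 (SEs 0.18, 0.18 and 0.21). All 8 fibroblast genes lay below 0 with a median of −0.35: Col1a1 at −0.53, Col1a2 at −0.34 and Dcn at −0.36. Their mean deviation was 0.58, 0.13 and −0.17 in wild type against −0.43, −0.11 and −0.01 in the knockout, so wild type 1 was the highest wild type and wild type 3 the lowest, as for the mural genes. Of 6 red cell genes 4 measured higher without overlap, beside 6.57% of all genes (Hba-a1 0.44, Hbb-b1 0.23 and Hbb-bt 0.79). The other 2 lay below 0, down to −0.36. Mean deviations of the 6 were −0.27, 0.12 and −0.25 in wild type against 0.15, 0.12 and 0.13 in the knockout. In limma 0 of these genes passed the threshold. With slide as a block the medians were −0.90 for border macrophages, −0.60 for fibroblasts, 0.27 for red cells and −0.32 for choroid plexus. They were −0.06 for astrocytes, −0.04 for oligodendrocytes, −0.11 for microglia and 0.02 for neurons. The medians of choroid plexus, astrocytes and oligodendrocytes changed sign. Without the block, medians of the other lists were 0.03 for astrocytes (Aqp4 0.06, Gfap −0.49, Gja1 −0.09), −0.06 for microglia (Cx3cr1 −0.01, P2ry12 −0.02, Tmem119 −0.06), 0.04 for choroid plexus (Ttr 0.22, Folr1 0.18, Kl −0.66), 0.01 for oligodendrocytes (Mbp 0.15 and Mog 0.005) and 0.09 for neurons (Snap25 −0.04, Syt1 −0.01, Rbfox3 0.19). The part of these cells in the differences of the vessel genes was not tested.

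The signals that act on these vessel cells showed no called change either. Of 13 vessel ligand genes 0 passed, with 6 above 0 and 7 below and a median of −0.03, or −0.14 with slide as a block. Vegfa, the ligand of Kdr and Flt1, measured 4.07, 4.18 and 4.27 in wild type against 3.93, 4.22 and 4.29 in the knockout (−0.03, SE 0.13). Angpt1, the ligand that activates the receptor encoded by Tek, measured 0.73, 0.42 and 0.45 against −0.12, 0.38 and 0.26. Its knockout arrays lay below the wild types by −0.36 (SE 0.16, limma adjusted p = 0.344), and by −0.65 (SE 0.16) with slide as a block, as knockout 1 was the lowest. Angpt2, its antagonist, measured −0.11 (SE 0.09).
Barrier Wnt signalling, by which neural cells induce barrier genes in endothelium, had 8 genes above 0 and 7 below with 0 past the threshold. The median was 0.05, and it changed sign to −0.13 with slide as a block. The ligand genes Wnt7a and Wnt7b measured 0.10 (SE 0.12) and 0.12 (SE 0.14). Adgra2, their co-receptor on endothelium, measured 0.90, 0.90 and 0.79 against 0.70, 0.48 and 0.57, without overlap (−0.28, SE 0.10, limma adjusted p = 0.311), and −0.17 (SE 0.11) with slide as a block.

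Further genes of the vessel wall were also tested by list. Of 10 other barrier junction genes 0 passed, with 5 above 0 and 5 below (Cldn12 0.13, Jam2 0.13, Jam3 −0.14). Of 12 other barrier transporters 0 passed, with a median of 0.06: the efflux pump genes Abcb1a and Abcg2 measured 0.13 and −0.04 and the amino acid transporter gene Slc7a5 0.07. Of 18 other endothelial genes 17 were tested and 0 passed, 5 above 0 and 12 below, with a median of −0.14 and 5 lower without overlap, beside 12.8% of all genes. The slide block gave a median of −0.23. Selp, the gene for the adhesion molecule P-selectin, had the lowest value of that list, −1.96 (SE 0.62, limma adjusted p = 0.307). It measured 0.50, 0.64 and 0.50 in wild type against 0.14, −2.25 and −2.12 in the knockout, so most of the difference lay on slide 2, and it was −0.41 (SE 0.12) with slide as a block. The ETS factor genes Erg, Fli1 and Ets1 measured −0.06, −0.16 and 0.09. Of 14 other mural genes 0 passed, with a median of −0.04 (Cspg4 0.07, Anpep −0.40, Ndufa4l2 0.08). Its lowest was smoothelin (Smtn), a contractile smooth muscle protein, at −1.02 (SE 0.28), and −0.36 (SE 0.13) with slide as a block. The 9 basement membrane genes, for the sheet that endothelium and pericytes share, had a median of 0.04 with 0 past the threshold (Col4a1 0.16, Col4a2 0.04, Lama4 0.17). With slide as a block their median was −0.06, beside −0.06 over all genes. The block medians were −0.05 for the other barrier junction genes, 0.03 for the other barrier transporters and −0.10 for the other mural genes.

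Circular RNAs made from the member genes were a further readout of the same loci. These are closed loops formed by back-splicing, read by probes of their own. The array held 40 in member genes on the gene's strand, from 11 genes. Their positions were read as GRCm38, since 97.3% of all circRNA positions lay inside a coding gene of that build and 35.9% after a shift by 1 Mb. Of the 40, 33 from 10 genes were tested: 14 of endothelial and 19 of mural genes. In limma 0 of 33 passed, where 1 of 34552 tested circRNAs did (0.00289%). At an unadjusted p under 0.05, 2 were higher and 5 lower, where 14.8% of circRNAs had such a p (8.69% higher and 6.15% lower). The median difference was −0.05, with 15 above 0 and 18 below, beside 0.08 over all tested circRNAs.

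The circRNAs split by slide. Knockouts 2 and 3 lay below all arrays of slide 1 in 13 of the 33, beside 20.0% of all tested circRNAs, and above them in 6, beside 34.7%. A Notch3 circRNA at chromosome 17, 32144168 to 32150130, measured 0.33, 0.35 and 0.51 in wild type against 0.39, −0.60 and −0.63 in the knockout. Knockout 1 lay with the wild types, and the difference of −0.67 (SE 0.28, limma adjusted p = 0.33) was −0.003 with slide as a block (SE 0.12). An Acta2 circRNA at chromosome 19, 34241570 to 34243355, measured 0.94, 0.86 and 0.83 against 0.82, 0.11 and 0.17 (−0.51, SE 0.20; −0.05 with the block), and a Pdgfrb circRNA −0.47, −0.46 and −0.42 against −0.50, −1.07 and −1.15 (−0.46, SE 0.18; −0.05 with the block).
An Acta2 circRNA at chromosome 19, 34248424 to 34252576, did not split by slide: it measured −2.66, −2.60 and −2.82 in wild type against −3.43, −2.98 and −3.44 in the knockout. There knockout 1 on slide 1 lay with knockout 3 on slide 2, below all wild types. The difference was −0.58 (SE 0.15, limma adjusted p = 0.307), −0.73 (SE 0.21) with slide as a block and −0.19 after normexp. This loop and the brightest Acta2 probe thus gave opposite signs. A Flt1 circRNA at chromosome 5, 147673533 to 147678318, measured −0.42, −0.44 and −0.42 against −0.63, −0.91 and −0.81 (−0.35, SE 0.10, limma adjusted p = 0.307; −0.20, SE 0.10, with the block). Both Bsg circRNAs measured higher, at 0.35 (SE 0.14) and 0.34 (SE 0.14), and 0.10 and 0.05 with the block.

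**Figure D5:**
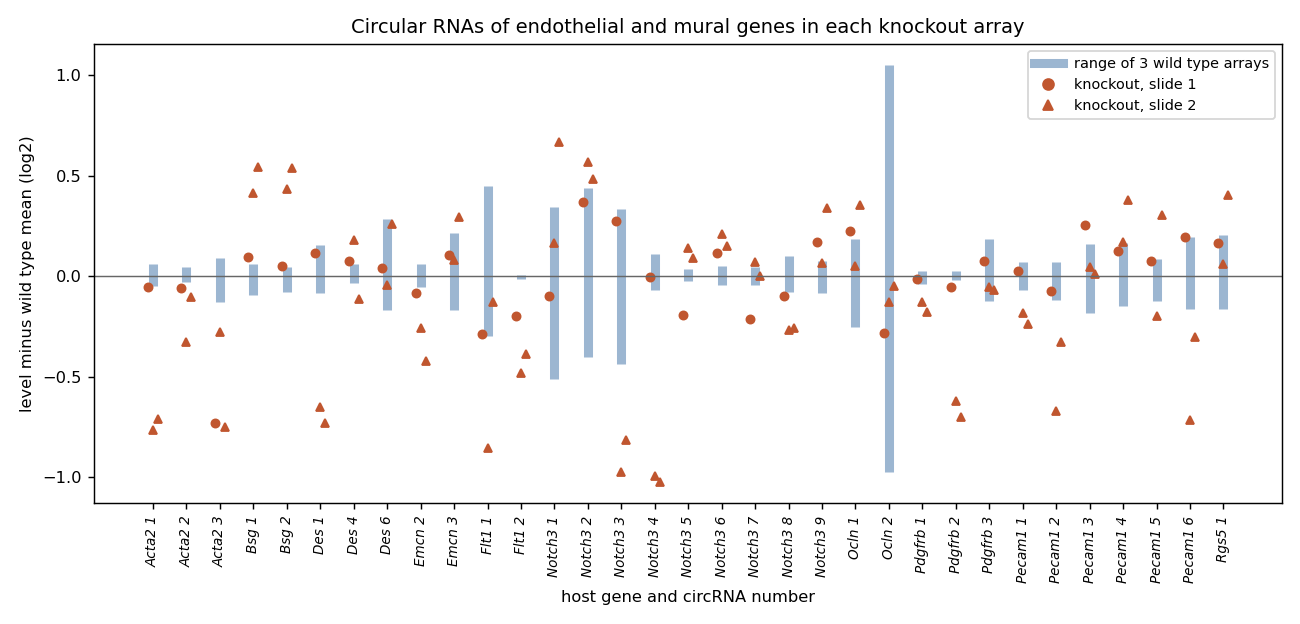
Level of each of the 33 tested circRNAs of member genes in each knockout array, minus its wild type mean (log2 scale), with the range of the 3 wild type arrays as a bar. Circles are knockout 1 on slide 1 and triangles knockouts 2 and 3 on slide 2; in 13 circRNAs both triangles lie below every array of slide 1, Notch3 4 among them.

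Promoters of the members were searched for the antioxidant response element, the motif that Nrf2 binds with small MAF proteins. RefSeq windows on GRCm38.p6, from 250 bases before to 50 after a transcript start, were given for 24 of the 36 genes, and the letters TGACNNNGC were searched on both strands. They were in windows of 2 genes, Kdr and Des, where 14.0% of all 27025 genes had such a window. The Kdr match lies before the start, and the stretch around it, chr5:75978456-75978560 on the minus strand, is shown for the 1 receptor gene whose genotypes did not overlap, with the match in capitals.
Kdr promoter: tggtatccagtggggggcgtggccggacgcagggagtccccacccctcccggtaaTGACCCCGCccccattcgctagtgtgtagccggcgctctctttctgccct
A match is a description of letters and not of binding, and no match says only that these letters are not in the window.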

How the data were processed

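Total RNA of 6 samples was labelled with Cy3 and hybridised to 1-colour arrays with 150305 probes, per the labels' protocols. The deposited scanner files hold linear intensity values. Their headers name Feature Extraction 12.0.3.1, and the submitters' processing notes give version 10.7 and limma. The authors' deposited value table, on a log2 scale by comparison with those files, served as an alternative.

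Control spots (4974) were dropped and outlier-flagged spots set to missing; 0 spots were saturated. Log2 processed signals minus each array's 75th percentile were fitted by lmFit and eBayes of limma 3.58.1 (R 4.3.3) without covariates over 105930 probes, tested if well above background on all 3 arrays of a genotype and with an estimable difference. Two-sided p-values were adjusted by Benjamini-Hochberg, threshold 0.05. The fit was tested on simulated data. Between 71.0 and 73.4% of probes were well above background per array, and 3 arrays per genotype limit the precision.

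Slides were read from the file headers. Alternatives were normexp (offset 50), quantile and median scaling, the authors' table, background filters, slide as a block, slide 1 alone, the replicate number as a block, each array left out, and the mean over a gene's probes. Probe positions are on mm9 per the file headers. Gene symbols came from the array and a RefSeq table of GRCm38.p6. All 36 members are named, the first 3 genes of each other list in written order, and any list gene past the threshold. The members and lists were chosen with earlier results of these data known.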

Additional observations from a re-analysis of the deposited data

How the results depend on the processing

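All 36 members stayed short of the threshold under every alternative except leaving out knockout 1, where slide and genotype cannot be told apart. There 4 of 36 passed, near the 9.04% of all genes: Ly6a at 0.78, Sox17 at −0.55, Des at −0.62 and Acta2 at 0.39. Des was well above background on 1 of the 3 knockout arrays and measured 0.03 after normexp. The count thus ran from 0 to 2 among endothelial and from 0 to 2 among mural genes when each array was left out. The endothelial median was −0.13 with slide as a block and on slide 1 alone; its other values ran from −0.036 to 0.063. Among all probes 10 passed, 17 with normexp, 4 with probes well above background on all 6 arrays, 4 on slide 1 alone, and 5 to 13562 when each array was left out. Same-numbered samples did not deviate together (r = −0.01, −0.05 and 0.04), but 3 arrays per genotype cannot exclude a pairing by number. With the replicate number as a block 2 probes passed and 0 members. The 16 alternatives are not all separate checks of a sign. The background filters and the replicate block changed 0 signs, and slide as a block and slide 1 alone gave the same estimates. The sign of the difference was the same under all 16 alternatives for 13 members: Cnn1, Emcn, Flt1, Kdr, Ly6c1, Myh11, Slc2a1, Slco1c1, Sox17, Sox18, Tagln, Tek and Vwf. It differed for 14 of 36 with slide as a block, for 6 with median scaling or the mean over probes, and for 1 with quantile scaling. For dim probes such as those of Des the signal over background limits the precision. The cause of these changes was not tested.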
